A study of Mus musculus with 12 samples.

Results

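The 10 genes Cxcl1, Cxcl2, Cxcl5, Ccl2, Csf1, Csf2, Csf3, Il6, Lif and Vegfa encode cytokines and chemokines that tumors use to call in blood cells and vessels. They were followed in 4T1 cells, an established mouse mammary carcinoma line, by chromatin immunoprecipitation and sequencing (ChIP-seq) of H3K27ac, the histone H3 acetylation that marks promoters and enhancers in use. Members were found as the rows of the H3K27ac table whose assigned gene carries 1 of these names, and 39 of its 126464 intervals met this rule. Of the 10 genes, 9 had at least 1 interval under their own name and Cxcl2 had none, among 22264 gene symbols in all. Wild-type 4T1 cells received, for 48 h, vehicle, acetate, etomoxir, both of these, etomoxir together with SB204990, or all 3 agents, with acetate at 5 mM and each inhibitor at 50 µM throughout. A plus sign joins the agents in the names of the 6 treatments. The cells are a single cultured line, with no immune or stromal cells of a tumor around them. Each treatment had 2 libraries, called set 1 and set 2 after the pair of suffixes that the library names share, and nothing in the labels says what a suffix stands for or whether the libraries come from separate cultures, so p-values measure the spread between these libraries, which may be technical.

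Cells can make acetyl-CoA, from which histones receive their acetyl groups, out of acetate. Etomoxir blocks carnitine palmitoyltransferase, which admits long-chain fatty acids to mitochondria, and SB204990 blocks ATP citrate lyase, which makes acetyl-CoA from citrate in the cytosol. The study asked whether the supply of acetyl-CoA sets the level of H3K27ac in metastatic cells, and the comparisons below ask this for a group of secreted signals. Cxcl1, Cxcl2 and Cxcl5 attract neutrophils through the receptor Cxcr2, and Ccl2 attracts monocytes through Ccr2. Csf3 (granulocyte colony-stimulating factor) drives the making of neutrophils, a trait 4T1 tumors are known for, while Csf1 sustains macrophages and Csf2 acts on both lineages. Il6 and Lif signal through receptors that share the subunit gp130, encoded by Il6st. Vegfa drives the growth of blood vessels. Many of these genes are known targets of NF-kB, a transcription factor of inflammatory signaling, and Vegfa is a known target of the hypoxia-inducible factors.

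The promoters of these genes were searched for short motifs, and none of the motifs occurred in all genes searched. RefSeq promoter windows (GRCm38.p6, the mm10 build, 250 bases before to 50 bases after the start) were found for 7 of the 10 genes, in 8 windows. Cxcl5, Ccl2 and Csf3 had no window and were not searched. The NF-kB motif, searched on both strands as GGG, any 2 bases and TTTCC, occurred in the windows of 4 of these genes, with 2 matches in Cxcl1 (at -89 and -71 from the RefSeq start), 2 in Cxcl2 (at -97 and -78), 1 in Il6 (at -44) and 1 in Csf1 (at -154). Among all 32851 windows of the same length, 1.63% held it. The sequences upstream of the start of these 4 genes are printed because each lies inside an H3K27ac interval described below, and the matches to the NF-kB motif are in capitals.
Cxcl1 (chr5:90890995-90891240, plus strand): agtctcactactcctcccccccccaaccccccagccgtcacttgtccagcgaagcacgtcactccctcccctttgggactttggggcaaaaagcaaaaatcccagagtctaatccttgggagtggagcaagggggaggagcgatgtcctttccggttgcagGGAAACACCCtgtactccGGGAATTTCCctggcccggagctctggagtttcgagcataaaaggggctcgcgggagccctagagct
Cxcl2 (chr5:90903649-90903870, plus strand): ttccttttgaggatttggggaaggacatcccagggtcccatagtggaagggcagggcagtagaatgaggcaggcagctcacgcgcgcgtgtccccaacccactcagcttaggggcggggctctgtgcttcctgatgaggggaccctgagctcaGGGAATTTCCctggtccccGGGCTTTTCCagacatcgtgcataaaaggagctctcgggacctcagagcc
Il6 (chr5:30012864-30013113, plus strand): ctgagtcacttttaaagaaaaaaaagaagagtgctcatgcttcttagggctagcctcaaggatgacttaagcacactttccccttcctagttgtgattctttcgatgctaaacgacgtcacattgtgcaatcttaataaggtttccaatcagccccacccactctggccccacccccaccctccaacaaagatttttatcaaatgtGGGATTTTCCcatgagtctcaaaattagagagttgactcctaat
Csf1 (chr3:107760470-107760719, minus strand): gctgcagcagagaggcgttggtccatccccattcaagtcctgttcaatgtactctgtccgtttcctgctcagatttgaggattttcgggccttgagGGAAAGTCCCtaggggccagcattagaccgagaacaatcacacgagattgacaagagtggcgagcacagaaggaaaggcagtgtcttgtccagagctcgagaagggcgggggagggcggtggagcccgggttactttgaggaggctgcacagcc

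The Cxcl1 and Cxcl2 sequences each carry a match of the same letters, GGGAATTTCC, between 70 and 100 bases before the start. An AP-1 motif (TGANTCA) was found in Il6 and Lif, against 7.81% of all windows, and a C/EBP motif (TTNNGCAA) in Il6 and Csf2, against 10.8%. The hypoxia response element (ACGTG) was found in the window of Cxcl1 and in 1 of the 2 windows of Vegfa, against 19.6% of all windows. That Vegfa window (chr17:46025114-46025413) lies inside the gene, whose start is at 46032369 on the minus strand. The other Vegfa window, next to that start, held no match. The TATA box (TATAAA) was found in 0 of the 7 genes and in 13.6% of all windows. No listed motif overlapped another in these genes. A match is a description of the letters in the window and not a bound site.

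The libraries held 7179165 reads (etomoxir + SB204990, set 2) to 16676442 reads (acetate, set 1) over all intervals. The value used here is the scaled read count, the reads in an interval multiplied by a factor that the authors derived from the added human chromatin (7.5%), with factors from 0.398 to 1. A factor of 1 occurred once in each set, and the sources used here do not say whether the factors put both sets on 1 scale. Within-set changes are therefore given for some genes in the contrasts between treatments, among them genes with wide gaps between the sets. The epithelial markers Krt8, Cdh1 and Epcam, which mark carcinoma cells of this kind, held 4048, 2771 and 975 summed scaled reads on average, and 5 of 6 epithelial markers had an interval (median 975, none at Krt18). Of 8 leucocyte markers, 6 had an interval, with 15.5 to 2317 scaled reads (median 41.8). Ptprc, which defines leucocytes, held 61.1 and Cd68 held the 2317. All 6 stromal and endothelial markers had an interval (17.4 to 733, median 92.7).

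Large blocks of H3K27ac covered 5 of the 9 genes that had an interval. Intervals of 20 kb or more made up 1.35% of all intervals and held 33.9% of all scaled reads, whereas the 6 such intervals of Cxcl1, Cxcl5 (2 intervals), Csf1, Csf3 and Lif held 90.8% of the scaled reads of the members. All 9 genes had an interval over their own start. By the authors' classes, 25 of the 39 intervals were intergenic.

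On chromosome 5, where the neutrophil chemokines lie together, a single interval of 38936 bp (chr5:90871394-90910329, mm10, class promoter-TSS) was assigned to Cxcl1, held 97.2% of the scaled reads of that gene, and also contained the whole of Cxcl2, whose start lies 12630 bp beyond that of Cxcl1. All values given for Cxcl1 are thus values for a region that both genes share. Cxcl5 starts 131881 bp before Cxcl1 and had 10 intervals. Its largest, an intergenic block of 39289 bp (chr5:90675757-90715045) centred at -63959 bp from the start, held 62.7% of the reads of Cxcl5. Its interval at the start, 20817 bp (chr5:90749712-90770528, class intron), held 29.5% and also covered Ppbp, which encodes another chemokine of the same family and had no row of its own name.

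The colony-stimulating factors differed from each other in the extent of the mark. The Csf1 interval of 52624 bp (chr3:107732553-107785176, class intron) spanned the whole gene and held 98.6% of its reads. Csf3 had a single interval, 44266 bp (chr11:98680942-98725207, class exon), which also held the start of Psmd3, a proteasome subunit gene, and overlapped Med24, a Mediator subunit gene, so its reads cannot be given to Csf3 alone. The Csf2 promoter interval was 5750 bp (chr11:54246859-54252608) and held 77.6% of its reads. Lif carried 99.2% of its reads in 27133 bp (chr11:4254578-4281710, class intron) that reached from -2979 to 24153 bp relative to its start. Il6, which like Lif signals through gp130, had only 2679 bp at its promoter (chr5:30011423-30014101, 61.0% of its reads) and a further 1578 bp, 27076 bp downstream of the start (chr5:30039608-30041185, intergenic, 31.1%). Ccl2 had a single interval of 10243 bp (chr11:82029696-82039938, class promoter-TSS), which also held the start of the predicted gene Gm17268. Vegfa had 8 intervals, and the 10143 bp over its start (chr17:46025234-46035376, class intron) held 79.2% of its reads.

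**Figure D1:**
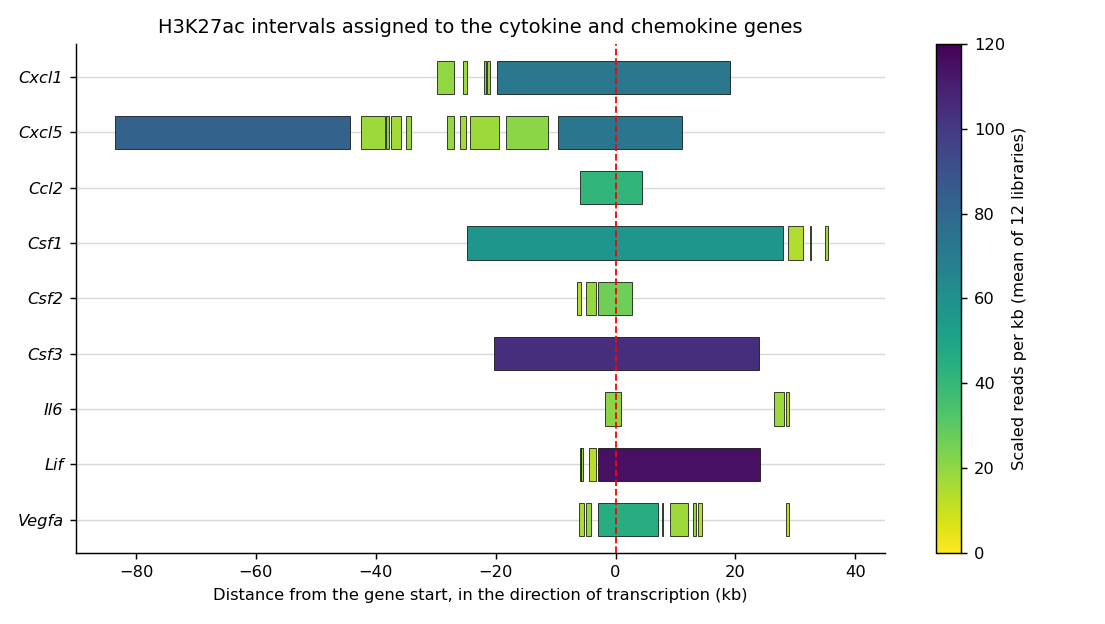
H3K27ac intervals of the 9 genes that had any, drawn by distance from the gene start in kb (negative is upstream) and colored by mean scaled reads per kb over the 12 libraries. Blocks of 20 kb or more lie over Cxcl1, Cxcl5, Csf1, Csf3 and Lif and upstream of Cxcl5, while Il6 and Csf2 have intervals under 6 kb.

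The genes with long intervals were also the densest. On the scale of mean scaled reads per kb of interval, Lif (109) and Csf3 (104) stood highest, followed by Cxcl1 (67.3), Cxcl5 (63.4), Csf1 (54.7), Ccl2 (41.6), Vegfa (33.8), Csf2 (23.9) and Il6 (19.4), against a median of 21.2 over all genes. By the sum over all intervals of a gene, Cxcl5, Csf3, Lif, Csf1 and Cxcl1 lay between the 98.2 and 99.6 percentiles of all genes, Vegfa at 80.5, Ccl2 at 73.4, Csf2 at 54.5 and Il6 at 39.5. Unscaled reads per library and gene ranged from 81 for Il6 to 10764 for Cxcl5, so counting error weighed most on Il6 and Csf2.

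The values of each gene in every library follow, as scaled reads summed over the intervals of the gene and in the order set 1, set 2. Cxcl1 (with Cxcl2) held 2280.1 and 2470.4 in vehicle, 3374 and 3131 in acetate, 2554 and 2606 in etomoxir, 4051 and 4051.3 in etomoxir + acetate, 1843 and 1996 in etomoxir + SB204990, and 2736 and 3724 in etomoxir + SB204990 + acetate. Cxcl5 held 4203 and 4349 in vehicle, 6497.5 and 6035 in acetate, 4145.5 and 4346 in etomoxir, 7207 and 7495 in etomoxir + acetate, 2896 and 3261 in etomoxir + SB204990, and 4744 and 6694 in etomoxir + SB204990 + acetate. For both neutrophil chemokine regions, all libraries with acetate lay above all libraries without it, and both etomoxir + SB204990 libraries were the lowest. Ccl2, the monocyte attractant, held 337 and 389.8 in vehicle, 580.1 and 616 in acetate, 280.03 and 303 in etomoxir, 558 and 609.6 in etomoxir + acetate, 215 and 285 in etomoxir + SB204990, and 347 and 594 in etomoxir + SB204990 + acetate. Its acetate libraries were the highest by mean, its etomoxir libraries lay below its vehicle libraries, and the set 1 library with all 3 agents lay below the vehicle library of set 2.

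Among the colony-stimulating factors, Csf1 held 2183 and 2569 in vehicle, 3637.5 and 3702 in acetate, 2527 and 2579 in etomoxir, 4487 and 4516 in etomoxir + acetate, 1613 and 2013 in etomoxir + SB204990, and 2735 and 3895 in etomoxir + SB204990 + acetate. Csf2 held 131 and 179 in vehicle, 189.5 and 201 in acetate, 190.3 and 176 in etomoxir, 338 and 264 in etomoxir + acetate, 111.5 and 178 in etomoxir + SB204990, and 191 and 219 in etomoxir + SB204990 + acetate. Csf3 held 3974.5 and 3661 in vehicle, 5418 and 4532 in acetate, 4300.4 and 4468 in etomoxir, 6134 and 6053 in etomoxir + acetate, 3318.5 and 2868 in etomoxir + SB204990, and 4372 and 6217.5 in etomoxir + SB204990 + acetate. Csf1 separated the libraries with and without acetate completely, while in Csf2 (etomoxir, set 1) and Csf3 (etomoxir, set 2) a library without acetate lay above 1 with it.

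Of the pair that signals through gp130, Il6 held 60.8 and 72.1 in vehicle, 129 and 95.6 in acetate, 62.3 and 67.0 in etomoxir, 132 and 166 in etomoxir + acetate, 49.0 and 81 in etomoxir + SB204990, and 99.6 and 97.1 in etomoxir + SB204990 + acetate. Lif held 2826 and 2561 in vehicle, 3993 and 3244 in acetate, 2846 and 2928.5 in etomoxir, 4083 and 4095.5 in etomoxir + acetate, 2201 and 1912 in etomoxir + SB204990, and 2913 and 4086 in etomoxir + SB204990 + acetate. Vegfa held 435 and 429 in vehicle, 662 and 599 in acetate, 495 and 467 in etomoxir, 866 and 783 in etomoxir + acetate, 356.1 and 440 in etomoxir + SB204990, and 587 and 852 in etomoxir + SB204990 + acetate. For Il6 and Vegfa every library with acetate lay above every library without it, and for Lif the etomoxir library of set 2 lay above the set 1 library with all 3 agents. The widest gap between the sets was in the treatment with all 3 agents, where 8 of 9 genes were higher in set 2 (median difference 0.50 on the log2 scale, against 0.37 over all genes), and in etomoxir + SB204990, where 7 of 9 were (0.30, against 0.58 over all genes).

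By group means, etomoxir + acetate was the highest of the 6 treatments for 8 of 9 genes (acetate alone for Ccl2), and etomoxir + SB204990 the lowest for 8 of 9 (etomoxir alone for Il6). Neighbours in the order often did not separate. For Csf3, the means of etomoxir + SB204990 + acetate (5295 ± 1305, SD, n = 2) and acetate (4975 ± 626) differed by less than the SD of the former, and for Il6 the vehicle (66.4 ± 8.01), etomoxir + SB204990 (65.0 ± 22.6) and etomoxir (64.6 ± 3.33) means lay within 2 scaled reads.

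**Figure D2:**
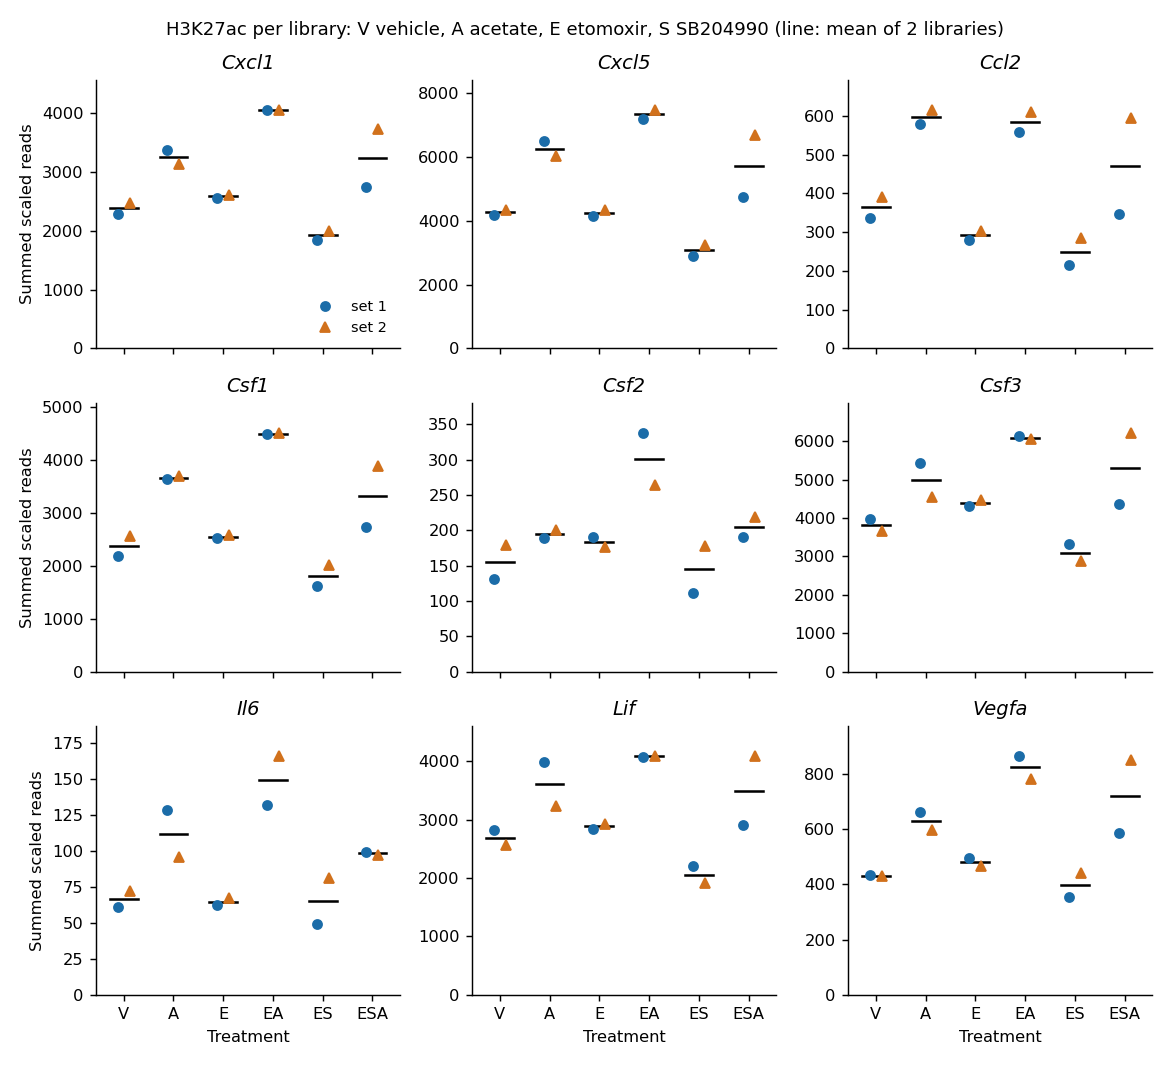
Summed scaled H3K27ac reads of each gene (vertical axis, from 0) in the 12 libraries by treatment, with set 1 as circles, set 2 as triangles and the mean of the 2 libraries as a line. The panels show acetate-treated libraries above their partners without acetate for all 9 genes, and set 2 above set 1 in the treatment with all 3 agents for all but Il6.

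Acetate came with more H3K27ac at all 9 genes, as it did at most genes of the table. In group means, acetate stood 1.26-fold (Csf2) to 1.69-fold (Il6) above vehicle, etomoxir + acetate 1.39-fold (Csf3) to 2.31-fold (Il6) above etomoxir, and the treatment with all 3 agents 1.41-fold (Csf2) to 1.88-fold (Ccl2) above etomoxir + SB204990. Averaged over the 3 backgrounds (no inhibitor, etomoxir, etomoxir + SB204990), 9 of 9 rose by limma at a Benjamini-Hochberg adjusted p under 0.05, and so did 88.2% of all 19458 genes tested. The rise, as a log2 fold change on the log2(scaled reads + 1) scale, was 0.86 ± 0.13 (SE) for Ccl2, 0.85 ± 0.17 for Il6, 0.77 ± 0.11 for Csf1, 0.74 ± 0.10 for Cxcl5, 0.72 ± 0.12 for Vegfa, 0.61 ± 0.10 for Cxcl1, 0.56 ± 0.11 for Lif, 0.54 ± 0.11 for Csf3 and 0.53 ± 0.15 for Csf2. Adjusted p-values ran from 1.44e-05 for Csf1 and Cxcl5 to 0.00193 for Csf2. The median over the 9 genes was 0.72 and that over all genes was 0.63, and 5 of the 9 lay above it. In same-set pairs the library with acetate was higher in 54 of 54 cases, by 0.16 (Csf2, acetate against vehicle, set 2) to 1.30 (Il6, etomoxir background, set 2), and 84.2% of all genes tested were higher in all 6 of their pairs.

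The test over single backgrounds gave different counts. For acetate alone against vehicle, 0 of 9 genes and 0% of all genes were called, although 8 of the 9 had an unadjusted p under 0.05 (42.9% of all genes) and the acetate libraries lay above the vehicle libraries without overlap for 9 of 9 (84.2% of all genes). The lowest adjusted p among the 9 was 0.101, the median log2 fold change was 0.54 (0.48 over all genes), and DESeq2 on the recovered reads called 5 of the 9 (19.1% of all genes), while edgeR called 0. With the set added to the limma fit as a block, Ccl2, Csf1, Cxcl5 and Vegfa were called (3888 of all 19458 genes). Vehicle and acetate libraries of the same set deviated together (r = 0.56). The sets differed most for Il6, with 1.07 in set 1 and 0.40 in set 2, and for Csf2, with 0.53 and 0.16. The fit draws its spread from all treatments, and without either etomoxir + SB204990 library it called 7 of the 9 (all but Csf2 and Csf3, beside 61.1% and 61.2% of all genes), while without either etomoxir + SB204990 + acetate library it called 6 (11.9% of all genes). For etomoxir + acetate against etomoxir, 9 of 9 rose (78.2% of all genes called, median 0.78 against 0.79 over all genes), from 0.48 ± 0.18 for Csf3 to 1.18 ± 0.30 for Il6, and the groups did not overlap for 9 of 9 (98.3% of all genes). For etomoxir + SB204990 + acetate against etomoxir + SB204990, 7 of 9 rose (57.7% of all genes called, median 0.76 against 0.64), from 0.73 ± 0.17 for Cxcl1 to 0.87 ± 0.18 for Cxcl5. Csf2 (0.53 ± 0.25, adjusted p = 0.0713) and Il6 (0.63 ± 0.30, adjusted p = 0.0703) did not pass, and the groups did not overlap for 9 of 9 (70.3% of all genes). The median of this contrast over all intervals tested was 0.62. It was 0.23 without the set 1 and 0.96 without the set 2 library of etomoxir + SB204990. Those 7 calls were all lost without the set 2 library of etomoxir + SB204990 + acetate, in a fit that assumes the lone library left to vary like the other groups, and all 9 were called without the set 2 library of etomoxir + SB204990 (0% and 91.4% of all genes).

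The size of the acetate change differed between sets for some genes. In the etomoxir + SB204990 background it was 0.40 in set 1 and 1.12 in set 2 for Csf3, and 0.40 and 1.10 for Lif. Il6 had the opposite order, 1.01 and 0.26, as did Csf2, 0.77 and 0.29. The median over all genes in this background was 0.74 in set 1 and 0.53 in set 2. In the etomoxir background the sets were close for most genes, with 0.51 and 0.44 for Csf3 and 0.99 and 1.01 for Ccl2. They differed most there for Csf2 (0.83 in set 1 and 0.58 in set 2) and Il6 (1.07 and 1.30). The interaction of acetate with etomoxir, which tests whether the acetate change differs with the inhibitor, called 0 of 9 genes by limma (0% of all genes, 0 of 9 at an unadjusted p under 0.05, and 0 by edgeR and by DESeq2), with values from 0.08 ± 0.26 for Lif to 0.45 ± 0.42 for Il6, of which all but that of Il6 lay below 0 with median-of-ratios scaling. The interaction with etomoxir + SB204990 likewise called 0 of 9 (0% of all genes, 0 unadjusted, 0 by edgeR and by DESeq2), from -0.10 ± 0.42 for Il6 to 0.38 ± 0.26 for Csf3. Its median over all intervals tested, 0.15, rested on 1 library. It was -0.24 without the set 1 and 0.46 without the set 2 library of etomoxir + SB204990.

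The acetate calls depended on the scaling of the libraries. With median-of-ratios scaling, which sets the typical interval equal between libraries and so removes a change shared by most intervals, 0 of 9 genes were called in any comparison by limma, and for the average acetate change 0 of 9 had an unadjusted p under 0.05. The median over all genes then moved from 0.63 to -0.01. With each library's reads expressed as a share of its total and multiplied by the factor, here called share-times-factor scaling, 0 of 9 were called as well, while the median over all genes was 0.43. Library totals then followed the factors alone. These were 0.467 (set 1) and 0.792 (set 2) for vehicle, and 0.398 and 1 for etomoxir + SB204990. Those pairs lie further apart than the totals of the authors' scaled reads, and the part of this in the lost calls was not tested. Relative to the typical interval, Ccl2 (0.22), Il6 (0.21), Csf1 (0.12), Cxcl5 (0.09) and Vegfa (0.07) stayed above 0 on the log2 scale and Csf2 (-0.11), Csf3 (-0.11), Lif (-0.09) and Cxcl1 (-0.03) lay below it, with adjusted p-values of at least 0.999.

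**Figure D3:**
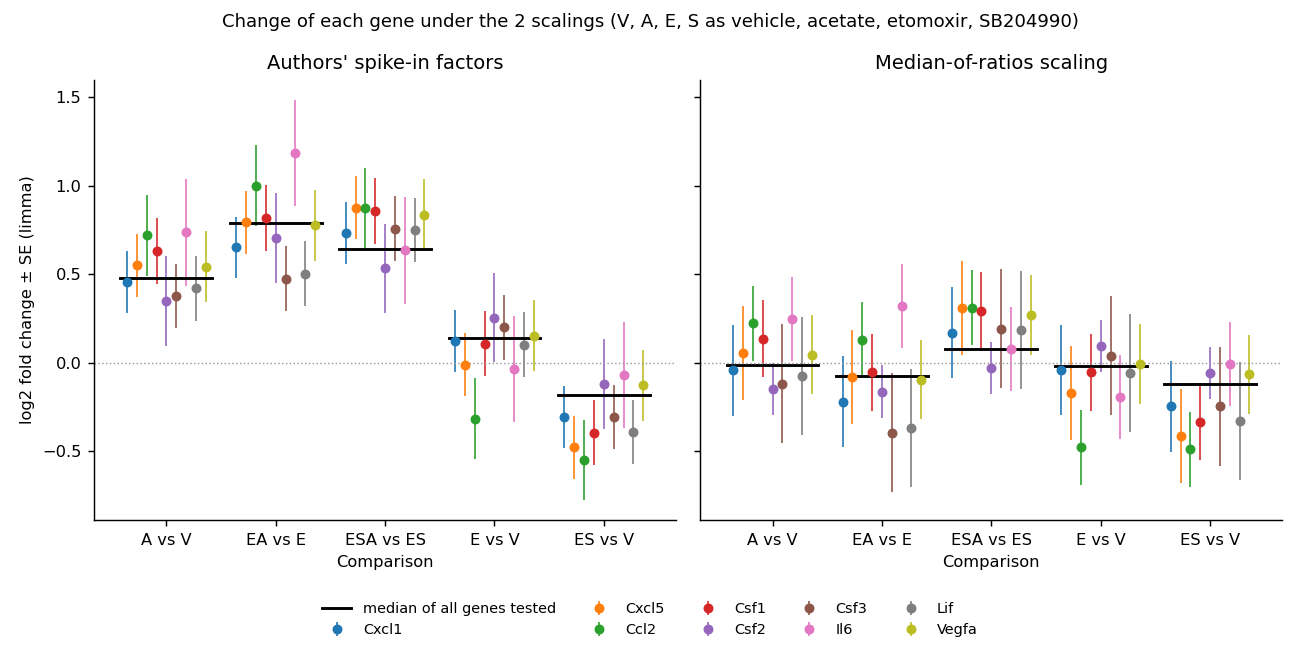
log2 fold change with its SE for the 9 genes in 5 comparisons, with the authors' spike-in factors on the left and median-of-ratios scaling on the right, and the median of all genes tested as a black line (V, A, E and S stand for vehicle, acetate, etomoxir and SB204990). With the spike-in factors the 3 acetate comparisons lie above 0 for all 9 genes, and with median-of-ratios scaling 0 are called, the 9 genes lie between -0.49 and -0.01 for both inhibitors against vehicle, and 8 of 9 lie above 0 for acetate added to both inhibitors.

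The inhibitors without acetate gave no called change at any of the 9 genes, in contrasts that share the vehicle libraries. For etomoxir against vehicle, 0 of 9 were called (0.0154% of all genes, 0 of 9 and 0.684% of all genes at an unadjusted p under 0.05, and 0 by edgeR and by DESeq2), with log2 fold changes from -0.32 ± 0.23 for Ccl2 to 0.26 ± 0.25 for Csf2 (0.54 in set 1 and -0.03 in set 2) and a median of 0.11 (0.14 over all genes). The median over all genes was 0.03 without the set 1 and 0.25 without the set 2 vehicle library, and 0.01 with total-sum and -0.08 with share-times-factor scaling. The etomoxir libraries lay above the vehicle libraries without overlap for 4 genes, Cxcl1, Csf3, Lif and Vegfa (40.2% of all genes), and below them for 1, Ccl2 (-0.27 in set 1 and -0.36 in set 2), as for 669 of all 19458 genes. With both inhibitors against vehicle, 0 of 9 were called (0.00514% of all genes, 4 of 9 and 4.24% of all genes at an unadjusted p under 0.05, and 0 by edgeR and by DESeq2). All 9 log2 fold changes were below 0, from -0.55 ± 0.23 for Ccl2 through -0.48 ± 0.18 for Cxcl5 and -0.39 ± 0.18 for Csf1 and Lif to -0.07 ± 0.30 for Il6, with a median of -0.31 (-0.18 over all genes). The sets differed in sign for Il6 (-0.31 in set 1 and 0.17 in set 2) and Vegfa (-0.29 and 0.04). The median over all genes rested on 1 library, since it was 0.11 without the set 1 library and -0.46 without the set 2 library of etomoxir + SB204990. It was 0.04 with total-sum and 0.09 with share-times-factor scaling, where Csf2, Il6 and Vegfa lay above 0. Both libraries lay below both vehicle libraries for 6 genes, Cxcl1, Cxcl5, Ccl2, Csf1, Csf3 and Lif (25.5% of all genes). These 6 include the 5 genes with an interval of 20 kb or more. Without the set 2 library of etomoxir + SB204990, Ccl2 was called (-0.75, adjusted p = 0.0215, beside 12.3% of all genes), again with a lone library assumed to vary like the others.

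The other contrasts between treatments also called 0 of 9 by limma, edgeR and DESeq2. Etomoxir + SB204990 against etomoxir (0% of all genes called) had a median of -0.43 (-0.33 over all genes) and 5 of 9 genes at an unadjusted p under 0.05 (21.0% of all genes). Without the set 2 library of etomoxir + SB204990 it called 4, Csf1, Csf2, Cxcl1 and Cxcl5, beside 63.8% of all genes. The median over all genes was then -0.59, and it was -0.04 without the set 1 library. With all libraries it was 0.02 with total-sum and 0.16 with share-times-factor scaling, and 7 of 9 genes lay above 0 under at least 1 alternative (all but Csf1 and Csf3). The sets differed in sign for Il6 (-0.34 in set 1 and 0.27 in set 2) and Csf2 (-0.77 and 0.02). Etomoxir + acetate against acetate (0.0771% of all genes called) had a median of 0.30 (0.43 over all genes), and the only gene at an unadjusted p under 0.05 was Csf2 (0.61 ± 0.25, adjusted p = 0.151), which was called without either etomoxir + SB204990 library (43.1% and 43.5% of all genes). At an unadjusted p under 0.05 stood 32.6% of all genes, and with median-of-ratios scaling the median of the 9 turned to -0.24 (-0.10 over all genes), with 7 of 9 turning from above to below 0. The sets differed most for Il6 (0.04 in set 1 and 0.79 in set 2), Csf2 (0.83 and 0.39) and Lif (0.03 and 0.34). Etomoxir + SB204990 + acetate against acetate (0.0514% of all genes called) had a median of -0.06 (-0.02 over all genes) and 0 genes at an unadjusted p under 0.05. In this contrast the sets differed in sign for all but Ccl2 and Csf2, with -0.30 in set 1 and 0.25 in set 2 for Cxcl1, -0.31 and 0.46 for Csf3, -0.45 and 0.33 for Lif, and -0.17 and 0.51 for Vegfa.

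At the level of single intervals, 30 of the 39 had a mean of at least 10 scaled reads and were tested. The average acetate change was called as a rise in 22 of 30 (77.2% of all 63903 intervals tested), with a median of 0.65 (0.64 over all intervals), and 0 were called lower. The 8 that did not pass had means of at most 34.0 scaled reads. The 6 intervals of 20 kb or more all rose, by 0.54 for Csf3 to 0.77 for Csf1. The promoter interval of Il6 rose by 0.95 ± 0.19 and its interval 27076 bp downstream by 0.72 ± 0.24. For Cxcl5, the block centred at -63959 bp rose by 0.77 ± 0.10 and the interval over the start by 0.71 ± 0.10, values that differ by less than either SE.

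For etomoxir against vehicle 0 of 30 intervals were called by limma (0.0626% of all intervals, 0 of 30 at an unadjusted p under 0.05, and 0 by edgeR and by DESeq2). For etomoxir + SB204990 against vehicle 0 of 30 were called (0.0532% of all intervals, 5 of 30 and 5.06% of all intervals unadjusted, 0 by edgeR and 1 by DESeq2, which called 0.232% of all intervals). That 1 was the upstream block of Cxcl5 (-0.57 ± 0.17, adjusted p = 0.263 by limma and 0.0305 by DESeq2), which was also called by limma without either library of etomoxir + SB204990 + acetate (0.537% and 0.532% of all intervals). Without the set 2 library of etomoxir + SB204990, the interval of Ccl2 and the 4891 bp interval of Cxcl5 were called instead (3.95% of all intervals). In this contrast the change was lower in longer intervals when both sets were pooled, and this order rested on set 2. Over all intervals tested, the median was -0.03 under 2 kb, -0.21 from 2 to 20 kb and -0.28 at 20 kb or more, and in the same classes the member intervals had medians of -0.09 (14 intervals), -0.13 (10 intervals) and -0.40 (6 intervals, -0.57 to -0.31). Within set 2 the medians over all intervals were 0.23, -0.05 and -0.22, and within set 1 they were -0.29, -0.35 and -0.34. The member intervals had 0.20, 0.04 and -0.37 within set 2 and -0.21, -0.45 and -0.40 within set 1. The etomoxir + SB204990 library of set 2 was the one with the fewest reads, and the part of depth in this order was not tested. With median-of-ratios scaling and both sets pooled, the medians at 20 kb or more were -0.22 over all intervals and -0.34 over the member intervals. The average acetate change had no such order, with medians over all intervals of 0.64, 0.64 and 0.65 in the 3 classes, but this average held opposite orders. In the etomoxir background the medians were 0.91, 0.79 and 0.74 over all intervals and 0.83, 0.90 and 0.71 over the member intervals. In the etomoxir + SB204990 background they were 0.53, 0.66 and 0.74 over all intervals and 0.57, 0.62 and 0.79 over the member intervals, again from set 2 (0.18, 0.57 and 0.79 over all intervals) and not from set 1 (0.87, 0.73 and 0.68).

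**Figure D4:**
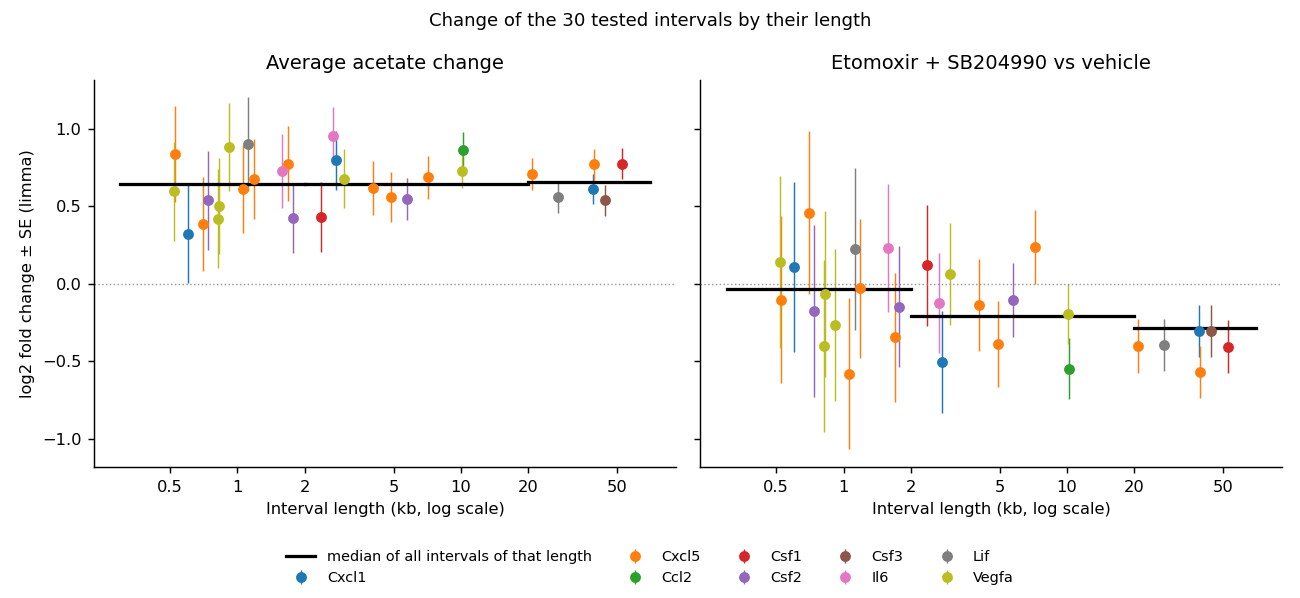
log2 fold change with its SE of the 30 tested intervals against their length (log axis) for the average acetate change (left) and for etomoxir + SB204990 against vehicle (right), with the median of all intervals of the same length class as black lines. The acetate changes lie around 0.65 at every length, whereas with both inhibitors the 6 longest intervals lie between -0.57 and -0.31.

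Of 122 other genes in 5 lists, 96 had an interval, 90 were tested and 84 rose with acetate on average, beside 88.2% of all genes. Of 32 other chemokines, 16 were tested and 15 rose (median 0.67), among them Ccl7 (0.91 ± 0.33), Ccl17 (0.82 ± 0.17) and Cxcl10 (0.81 ± 0.14). Of 38 other cytokines and growth factors, 30 were tested and 26 rose (median 0.68), with Pdgfc (0.91 ± 0.14), Tnf (0.90 ± 0.13) and Flt3l (0.81 ± 0.25) the furthest. Of 18 receptors for the members, 12 were tested and 11 rose (median 0.62), among them Csf1r (0.81 ± 0.11), Lifr (0.78 ± 0.20) and Il6ra (0.72 ± 0.16), the receptor genes for Csf1, Lif and Il6. All 12 tested genes of 14 in the NF-kB pathway rose (median 0.63), led by Nfkbia (0.84 ± 0.11), which encodes the inhibitor of NF-kB, and so did 20 of 20 in the JAK-STAT, C/EBP and hypoxia-inducible factor pathways (median 0.70), led by Cebpa (0.88 ± 0.17), Stat3 (0.86 ± 0.16) and Pim1 (0.84 ± 0.12). For etomoxir and for etomoxir + SB204990 against vehicle, 0 of the 90 were called by limma, with 2 and 6 at an unadjusted p under 0.05 (0.684% and 4.24% of all genes), 0 and 0 by edgeR, and 0 and 1 by DESeq2 (0.0719% and 0.0411% of all genes). Without the set 2 library of etomoxir + SB204990, 19 of the 90 were called in the latter contrast (12.3% of all genes). With median-of-ratios scaling 0 of the 90 were called for the average acetate change. The lists of epithelial, leucocyte and stromal and endothelial markers rose too, by 5 of 5, 5 of 6 and 6 of 6 tested genes (medians 0.63, 0.67 and 0.67).

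Among themselves, the members did not follow 1 pattern over the libraries. With median-of-ratios scaling on the log2 scale, Pearson correlations over the 12 libraries ran from -0.24 to 0.99 over the 36 gene pairs (median 0.63), and all points share libraries with their depth and enrichment. Cxcl1 and Lif, on different chromosomes, had the value of 0.99, and Cxcl1 with Csf3 had 0.98. The genes most like the sum of the members, among 15525 with a mean of at least 50, were 4933433G15Rik (r = 0.998), Ptma (0.997), which encodes the nuclear protein prothymosin alpha, and Neat1 (0.996), a long non-coding RNA of paraspeckles.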

How the data were processed

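H3K27ac ChIP-seq of 12 4T1 libraries (6 treatments, 2 libraries each) was used. The authors ran nf-core/chipseq on a merged human and mouse genome (GRCh38, mm10) and deposited, per interval, a signal: reads multiplied by a factor from the share of human reads, set relative to the highest. In 2 libraries the deposited values are whole, so they equal the read count (factor 1), and in the other 10 whole reads were recovered for all values (tolerance 0.01). Whether the factor also offsets depth is not given in the sources used here. In all treatments but etomoxir + acetate, the library with more reads had the lower factor. How intervals were called over libraries is not given in the sources used here. Intervals were summed per gene symbol, leaving out 12 with no symbol. limma 3.58.1 (R 4.3.3) with an intensity trend was fitted to log2(scaled reads + 1), with 6 group means over all 12 libraries. Features with a mean of at least 10 were tested, adjusted by Benjamini-Hochberg over all tested and called at an adjusted p under 0.05. The alternatives were edgeR 4.0.16 and DESeq2 1.42.0 on recovered reads, other scalings, pseudocounts and filters, a replicate block, intervals within 20000 bp of the start, and leaving out each library. The fits were tested on simulated data. All 10 members were named, and of each other list up to 3 called genes of the largest change with the same sign in both sets, as well as the 3 genes most like the summed members. Members and lists were chosen with earlier results of these data known. Coordinates are mm10, counted from 1.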

Additional observations from a re-analysis of the deposited data

How the results depend on the processing

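With median-of-ratios, total-sum or share-times-factor scaling, 0 members were called for the average acetate change (9 with the authors' factors), 0 for etomoxir + acetate against etomoxir (9), 0 for etomoxir + SB204990 + acetate against etomoxir + SB204990 (7), 0 member intervals (22) and 0 genes of the other lists (84) for the average acetate change. Median-of-ratios and total-sum scaling set library levels equal, so they remove a change shared by most genes in advance and cannot test it. Share-times-factor scaling set the libraries of some treatments further apart. The size of the change did not move alike, since the median over all genes of the average acetate change was 0.63 with the authors' factors, -0.01 with median-of-ratios, 0.01 with total-sum and 0.43 with share-times-factor scaling, and that of etomoxir + acetate against etomoxir was 0.79, -0.08, 0.05 and 0.82. By DESeq2, 5 members were called for acetate against vehicle (0 by limma), and for etomoxir + SB204990 against vehicle 1 member interval (0) and 1 gene of the other lists (0). The suffixes were taken as pairing no libraries, since 4 of 15 correlations of same-set deviations were over 0.1 (-0.2249 to 0.6011, 19458 genes). The vehicle, acetate and etomoxir + SB204990 libraries did deviate together (0.5614 for vehicle with acetate, 0.6011 and 0.5924 with etomoxir + SB204990). The replicate block called 4 members for acetate against vehicle (Ccl2, Csf1, Cxcl5 and Vegfa, 0 without it, beside 20.0% of all genes) and 8 for etomoxir + SB204990 + acetate against etomoxir + SB204990 (7 without it, beside 65.0% of all genes). Without 1 library each, the members called were 9 to 9 for the average acetate change, 0 to 7 for acetate against vehicle, 6 to 9 for etomoxir + acetate against etomoxir (6 without either etomoxir library or the set 1 etomoxir + acetate library, beside 52.3%, 37.9% and 28.8% of all genes), 0 to 9 for etomoxir + SB204990 + acetate against etomoxir + SB204990 (0 without the set 2 library with all 3 agents), 0 to 1 for etomoxir + SB204990 against vehicle, 0 to 4 for etomoxir + SB204990 against etomoxir, 0 to 1 for etomoxir + acetate against acetate, and 0 to 0 for the other contrasts. Member intervals ranged from 20 to 27 for the average acetate change and 0 to 2 for etomoxir + SB204990 against vehicle, and genes of the other lists from 78 to 88 and from 0 to 19 (19 without the set 2 and 2 without the set 1 etomoxir + SB204990 library).

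For the average acetate change, the 3 acetate contrasts and both inhibitor contrasts against vehicle, signs of log2 fold changes of single genes turned as follows, none of them called, and the cause was not tested. For the average acetate change with median-of-ratios and total-sum scaling, in this order, Cxcl1 had -0.03 and -0.01, Csf2 -0.11 and -0.10, Csf3 -0.11 and -0.09, and Lif -0.09 and -0.07. For acetate against vehicle, Cxcl1 had -0.04 and -0.02, Csf2 -0.15 and -0.12, Csf3 -0.12 and -0.09, and Lif -0.08 and -0.05. For etomoxir + acetate against etomoxir, Cxcl1 had -0.22 and -0.09, Csf2 -0.16 and -0.04, Csf3 -0.40 and -0.27, and Lif -0.37 and -0.24, and with median-of-ratios scaling alone Cxcl5 had -0.08, Csf1 -0.05 and Vegfa -0.10. For etomoxir + SB204990 + acetate against etomoxir + SB204990, Csf2 had -0.03 and -0.13, and Il6 -0.02 with total-sum scaling. For etomoxir against vehicle, with share-times-factor scaling as the third value, Cxcl1 had -0.04, -0.01 and -0.10, Csf1 -0.05, -0.02 and -0.11, and Lif -0.06, -0.03 and -0.12, while Vegfa had -0.01 (median-of-ratios) and -0.07 (share times factor) and Csf3 -0.02 (share times factor). In that contrast intervals within 20000 bp gave 0.08 for Cxcl5 and 0.04 for Il6, and leaving out a library gave 0.02 (etomoxir set 1) and 0.01 (vehicle set 2) for Cxcl5, -0.01 (vehicle set 1) to 0.23 (vehicle set 2) for Csf1, and 0.02 (etomoxir set 1) and 0.09 (vehicle set 2) for Il6. For etomoxir + SB204990 against vehicle with total-sum and share-times-factor scaling, Csf2 had 0.10 and 0.16, Il6 0.15 and 0.20, and Vegfa 0.10 and 0.15. Without the etomoxir + SB204990 library of set 1, Csf2 had 0.22, Il6 0.29 and Vegfa 0.03, without that of set 2 they had -0.45, -0.43 and -0.28, and without the vehicle library of set 2, Csf2 had 0.11 and Il6 0.05. In the remaining contrasts, over 12 alternatives with all libraries, genes with values on both sides of 0 numbered 8 of 9 for etomoxir + acetate against acetate (all but Csf2), 8 of 9 for the interaction with etomoxir (all but Il6), 7 of 9 for etomoxir + SB204990 against etomoxir (all but Csf1 and Csf3), 3 of 9 for the interaction with etomoxir + SB204990 and 2 of 9 for etomoxir + SB204990 + acetate against acetate. Other single-gene results of the first 6 kept direction and call in 1121 cases, lost the call in 75 and gained it in 40. Depth limited Il6 and Csf2 most.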

Other observations

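Ccl2 was chosen for this paragraph after its values were seen. Its log2 change with etomoxir against vehicle was -0.32 ± 0.23 (adjusted p = 0.99 by limma), at the 4.15 percentile of all genes tested, and with etomoxir + acetate against acetate it was -0.04 ± 0.23, at the 2.01 percentile. These contrasts share no libraries. With etomoxir + SB204990 against vehicle and with etomoxir + SB204990 + acetate against acetate, the percentiles were 1.86 and 3.35, where the first shares its vehicle libraries and the second its acetate libraries with the contrasts above. With median-of-ratios scaling these 4 changes were -0.48, -0.57, -0.49 and -0.40, with unadjusted limma p-values of 0.0445, 0.0201, 0.0405 and 0.0827 and adjusted p-values of at least 0.831.

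With 2 libraries per treatment, the fit took its spread from all 6 treatments. A spike-in factor of 1 occurred in each set, and whether levels are tied between the sets is not given in the sources used here. H3K27ac was read over intervals that often hold several genes, and reads cannot be given to Cxcl1 over Cxcl2, Cxcl5 over Ppbp, Ccl2 over Gm17268, or Csf3 over Psmd3. Expression of these genes and secretion of their products were not analysed here.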
